A study of Mus musculus with 40 samples.

Results

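Gene expression in dorsal root ganglia 2 days after spared nerve injury was compared with that in naive ganglia, over all genes measured on Illumina bead arrays. The comparison takes the 3 arrays labelled for 2 days and the 7 naive arrays, 10 of the 40 arrays in the series. All mice were male C57BL/6J adults of 9 to 10 weeks. In the injured mice, under isoflurane, the sciatic nerve lost its tibial and its common peroneal branch, which were ligated and transected, and its sural branch was spared; the time tag of these arrays holds hours, 48 at 2 days. Naive mice carry no treatment label, so no sham operation separates the surgery and anaesthesia from the nerve lesion. The labels do not say which ganglia were taken, from which side, or how many mice stand behind an array. The p-values therefore rest only on the scatter among arrays within groups, pooled over all 40 arrays, and some of that scatter may be technical.

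Dorsal root ganglia hold the cell bodies of the sensory neurons that serve skin, muscle and joints, together with satellite glia, myelinating glia, vessels and resident macrophages. When the peripheral axon of such a neuron is cut, the cell body switches on transcription factors, growth-associated proteins and neuropeptides that are scarce in the intact ganglion, and many of its channels, receptors and synaptic proteins decline over the following days. Spared nerve injury is widely used to study neuropathic pain, because the uncut sural nerve still carries touch from the paw. A ganglion after this injury mixes cut and spared neurons, so every value below is an average over both. In such bulk RNA, fewer cells of a type and less RNA per cell cannot be told apart.

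The median raw signal was 138 to 244.5 intensity units on the naive arrays and 155 to 225 at 2 days. Values below are normalized log2 signals, on which 1 unit is a doubling. A detection level of 6.85 was read from the deposited detection p-values of 3 arrays, and 10519 genes had a probe above it on at least 3 of the 40 arrays. Values "with neqc" below come from another background correction, fitted without 1 array of a later time, that uses the deposited detection p-values; those columns follow the array's own signal on 3 arrays and not on 37. The defining markers of sensory neurons were abundant in both groups. None of 14 tested members of that list was called (3 were lower by limma at an unadjusted p under 0.05), and their mean signal was 11.6 to 11.8 on the naive arrays and 11.6 at 2 days. At that unadjusted p, 770 of all 10519 genes were higher and 877 lower. Avil, which encodes the actin-binding protein advillin of peripheral sensory neurons, read 13.60 to 13.86 on the naive arrays and 13.64 to 13.88 at 2 days. Skeletal muscle markers averaged 9.34 on naive replicate 6, against 7.10 to 7.76 on the other naive arrays and 7.19 to 7.49 at 2 days.

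At 2 days, 253 of the 10519 genes tested were higher than in naive ganglia (2.41%) and 153 were lower (1.45%), 406 in all (3.86%), with a limma adjusted p under 0.05 after Benjamini-Hochberg adjustment over all genes. The rises were larger than the falls. By the difference of group means, 52 of the genes called were over 2-fold higher, 12 of them over 4-fold, and 1 was over 2-fold lower. For 30 of the genes called higher, no naive array lay above the detection level. Their folds in these counts are against background, and as bounds against that level some are smaller than the size counted. The median log2 difference was 0.62 among the genes called higher and -0.46 among those called lower, while the median over all genes was -0.01. The median SD of a gene was 0.17 over the naive arrays and 0.13 over the arrays at 2 days. For 238 of the 253 higher genes, every array at 2 days lay above every naive array; over all genes tested, 4.6% separated in that direction. The same held downwards for 140 of the 153 lower genes, against 4.8% of all genes. Without 2-day replicates 1, 2 and 3 in turn the count of 406 fell to 265, 268 and 193, and with robust variances and array weights it was 995. Without the arrays of the series whose skeletal muscle mean was above 8.5, naive replicate 6 among them, 203 genes were higher and 88 lower.

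**Figure D1:**
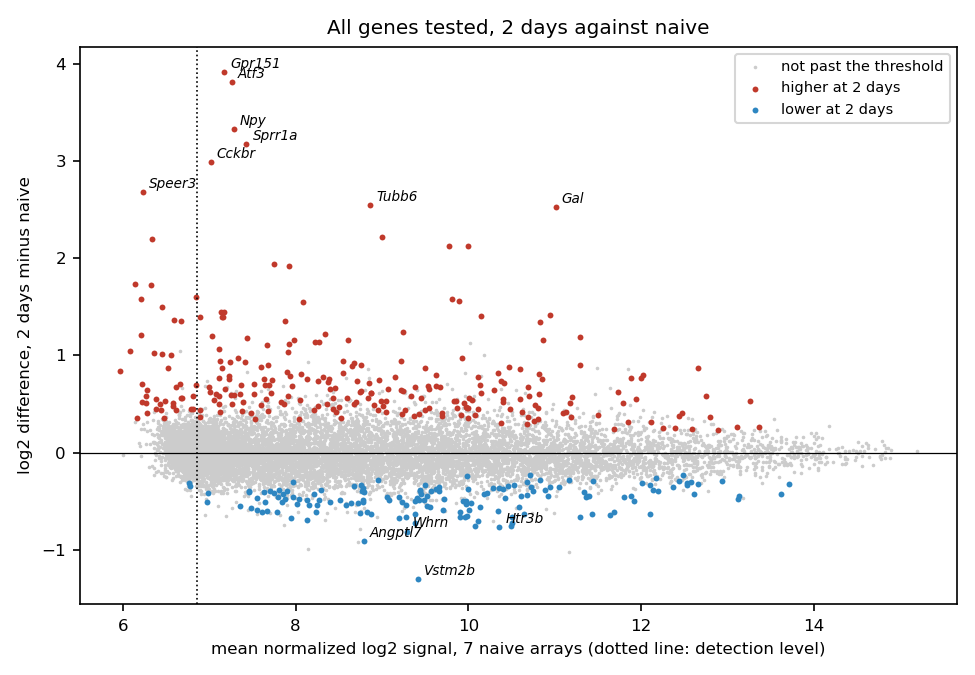
Log2 difference between 2 days after injury and naive (y axis) against the mean normalized log2 signal of the 7 naive arrays (x axis) for all 10519 genes tested, with the genes called higher in red, called lower in blue and the rest in grey, and the detection level dotted. The rises reach 3.91 (Gpr151) and the falls reach -1.30 (Vstm2b).

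The largest rise was in Gpr151, which encodes an orphan G protein-coupled receptor. The naive arrays read 6.90 at the lowest, 7.19 at the median and 7.48 at the highest, and the arrays at 2 days read 10.90, 10.98 and 11.36. The groups were more than 3 log2 units apart at their nearest arrays. The difference was 3.91 ± 0.15 (log2 difference ± SE, n = 3 against 7, adjusted p = 4.43e-19), or 15.04-fold. Atf3, a stress-induced transcription factor that marks neurons with a cut axon, read 6.89, 7.25 and 7.54 (lowest, median, highest) on the naive arrays and 10.85, 11.02 and 11.35 at 2 days. It rose by 3.81 ± 0.16 (14.1-fold, adjusted p = 1.16e-18), again with no overlap.

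Where 2.41% of all genes tested were higher, 3 of 17 tested injury transcription factors rose and none fell, with a median difference of 0.31 over the list. Beside Atf3 these were Jun, the AP-1 subunit that partners with Atf3 in regenerating neurons, and Klf6, a Krüppel-like factor linked to axon growth. Jun read 9.83 to 10.03 on the naive arrays and 10.79, 10.91 and 11.01 at 2 days, a rise of 0.97 ± 0.16 (adjusted p = 0.000151). Klf6 rose by 0.57 ± 0.16 (adjusted p = 0.0297). That call was lost when any 1 of 6 arrays was left out, with adjusted p up to 0.13. Fos, another AP-1 subunit, differed by 0.93 ± 0.30 (adjusted p = 0.0803) and Smad1, a transducer of bone morphogenetic protein signals, by 0.82 ± 0.25 (adjusted p = 0.0622), and neither passed the threshold. Other Smad1 probes differed by 0.81 and -0.08. The signal transducer Stat3 (0.19 ± 0.11, adjusted p = 0.443) and the immediate early gene Egr1 (0.38 ± 0.22, adjusted p = 0.417) did not pass it either.

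Genes of growth arrest and the integrated stress response followed in part, with 4 of 16 higher and none lower. Over all genes tested, 2.41% were higher. Gadd45a, a growth arrest and DNA damage protein, read 9.59, 9.95 and 10.56 on the naive arrays and 11.99, 12.02 and 12.33 at 2 days, without overlap. It rose by 2.12 ± 0.18 (4.35-fold, adjusted p = 1.92e-10), and its relative Gadd45g rose by 1.16 ± 0.10 (adjusted p = 2.17e-10). Cdkn1a, the cyclin-dependent kinase inhibitor p21, rose by 1.19 ± 0.12 (adjusted p = 7.67e-09), and its other probes differed by 1.15 and 1.35. Chac1, a glutathione-degrading enzyme that Atf4 induces, rose by 0.68 ± 0.13 (adjusted p = 0.000744). The other Atf4 targets named in the list did not pass the threshold, among them Asns (0.23 ± 0.11, adjusted p = 0.305) and Trib3 (0.10 ± 0.11, adjusted p = 0.708).

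Neuropeptides known to appear in injured sensory neurons had the largest share of calls among the 37 lists compared. Of 7 tested genes 6 were higher and none lower, with a median difference of 1.41, and 2.41% of all genes tested were higher. The lists and members were chosen with earlier results of these data known, so this rank is a description and not a test. Npy, which encodes neuropeptide Y, read 6.73, 7.17 and 8.02 on the naive arrays and 10.36, 10.61 and 10.84 at 2 days, so that the nearest arrays were more than 2 log2 units apart. It rose by 3.32 ± 0.25 (10.0-fold, adjusted p = 6.18e-12). Gal, which encodes galanin, was already well detected in naive ganglia. It read 10.58, 11.05 and 11.32 there and 13.30, 13.62 and 13.69 at 2 days, and rose by 2.53 ± 0.14 (5.76-fold, adjusted p = 2.76e-15).

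The other peptide genes that rose were Adcyap1, Vgf, Nts and Ucn. Adcyap1, the precursor of the peptide PACAP, rose by 1.41 ± 0.12 (adjusted p = 9.19e-11) and Vgf, a granin-like peptide precursor, by 1.34 ± 0.16 (adjusted p = 3.09e-07). Ucn, which encodes urocortin, a corticotropin-releasing factor family peptide, was above the detection level on no naive array and read 7.86, 7.99 and 8.31 at 2 days, at least 2.30-fold higher (adjusted p = 1.26e-11; a log2 difference of 0.57 with neqc). Nts, the neurotensin precursor, rose by 1.36 ± 0.33 (adjusted p = 0.0112). It differed by 0.89 with neqc and its second probe by -0.0042, and the call was lost without 2-day replicate 2 or 3 (adjusted p = 0.0513 and 0.0837). Nmb, the neuromedin B precursor, was the member that did not pass (-0.21 ± 0.10, adjusted p = 0.292).

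The peptides of intact nociceptors gave 1 call among 5 tested genes, a higher one, where 2.41% of all genes tested were higher. Tac1, the substance P precursor, read 12.94 to 13.39 on the naive arrays and 12.91 to 13.14 at 2 days, with a difference of -0.18 ± 0.12 (adjusted p = 0.496). Calcb, which encodes a calcitonin gene-related peptide, differed by 0.36 ± 0.34 (adjusted p = 0.665). Grp, the gastrin-releasing peptide precursor, was called higher (adjusted p = 0.0356), but no naive array and only 2-day replicate 1 lay above the detection level, and 6 single arrays left out in turn each ended the call (adjusted p up to 0.197), as did neqc (adjusted p = 0.228).

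**Figure D2:**
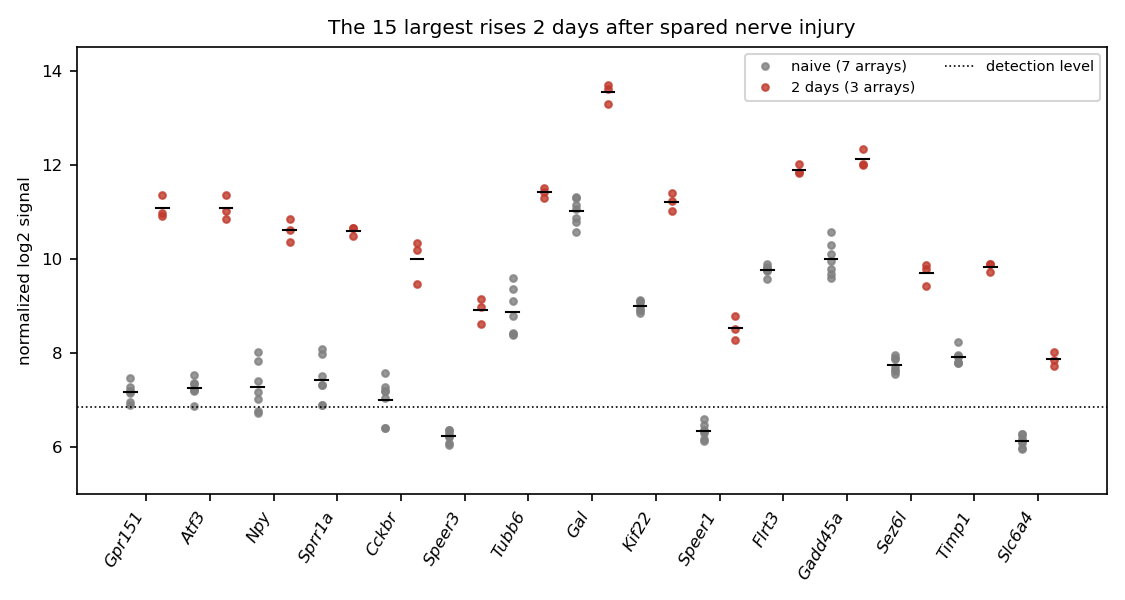
Normalized log2 signal (y axis) of the 15 genes with the largest rises (x axis), with 1 point per array for the 7 naive arrays in grey and the 3 arrays at 2 days in red; horizontal bars are group means and the dotted line is the detection level. In all 15 genes every red point lies above every grey point, and the naive points of Speer3, Speer1 and Slc6a4 lie below the detection level.

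Of 6 tested receptors for these peptides or known from injury, 2 rose and 1 fell, where 2.41% of all genes tested were higher and 1.45% lower. Beside Gpr151, the cholecystokinin B receptor gene Cckbr read 6.40, 7.19 and 7.59 on the naive arrays and 9.47, 10.19 and 10.34 at 2 days. It rose by 2.99 ± 0.23 (7.92-fold, adjusted p = 1.26e-11). Ntsr2, a neurotensin receptor gene, fell by 0.51 ± 0.14 (adjusted p = 0.0353), a call lost when any 1 of 6 arrays was left out (adjusted p up to 0.312), and by 0.22 with neqc. The neuropeptide Y receptor genes did not pass the threshold, with 0.31 ± 0.12 for Npy1r (adjusted p = 0.17) and 0.37 ± 0.20 for Npy2r (adjusted p = 0.389).

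Axon growth proteins gave 12 higher and no lower among 24 tested genes, a median of 0.51, where 2.41% of all genes tested were higher. Sprr1a, a small proline-rich protein that promotes neurite outgrowth, read 6.90, 7.33 and 8.08 on the naive arrays and 10.48, 10.66 and 10.66 at 2 days. All 3 arrays at 2 days stood more than 2 log2 units above the highest naive array, and the rise was 3.17 ± 0.22 (8.99-fold, adjusted p = 2.63e-12). Tubb6, a beta-tubulin, read 8.39, 8.79 and 9.59 against 11.42, 11.30 and 11.51, and rose by 2.55 ± 0.27 (5.84-fold, adjusted p = 2.80e-08). Flrt3, an adhesion protein that promotes neurite growth, read 9.58, 9.78 and 9.89 against 11.85, 11.83 and 12.01. It rose by 2.13 ± 0.12 (adjusted p = 1.35e-14), and its other probes differed by 2.09 and 2.18.

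Further rises in this list concerned adhesion, cytoskeleton and survival. Itga7, a laminin-binding integrin subunit of regenerating axons, rose by 1.55 ± 0.12 (adjusted p = 7.85e-12). Tnfrsf12a, the receptor for the cytokine TWEAK, rose by 1.55 ± 0.16 (adjusted p = 2.62e-08), with 9.05, 9.75 and 10.10 at 2 days above a naive maximum of 8.26. Stmn4, a tubulin-binding stathmin, rose by 1.44 ± 0.26 (adjusted p = 0.000353). Ecel1, an endopeptidase of injured neurons, rose by 1.36 ± 0.18 (adjusted p = 4.17e-06), Plaur, the urokinase receptor, by 0.77 ± 0.11 (adjusted p = 1.70e-05), and Hspb1, a small heat shock protein that protects injured neurons, by 0.76 ± 0.16 (adjusted p = 0.00315). For Ecel1 only 2 of the 7 naive arrays lay above the detection level. With neqc the differences were smaller for Stmn4 (0.72), Ecel1 (0.51) and Plaur (0.31), and all 3 stayed past the threshold.

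The weakest calls of the list were Lgals1 (0.31 ± 0.09, adjusted p = 0.0362), which encodes galectin-1, and Cd44 (0.39 ± 0.11, adjusted p = 0.048), a hyaluronan receptor. They were lost when any 1 of 5 arrays (Lgals1, adjusted p up to 0.372) or of 8 arrays (Cd44, adjusted p up to 0.233) was left out, and the other Cd44 probes differed by 0.19 and -0.04. Anxa1, which encodes annexin A1, was above the detection level on no naive array and on all 3 at 2 days, at least 1.05-fold higher (adjusted p = 0.00148; a log2 difference of 0.11 with neqc). Gap43, the best known growth-cone protein, read 10.96, 11.41 and 11.98 on the naive arrays and 12.37, 12.31 and 12.39 at 2 days, without overlap, and its difference of 0.87 ± 0.29 did not pass the threshold (adjusted p = 0.0949).

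Promoter sequence was looked up for the genes that rose, because Atf3 and Jun bind AP-1 sites (TGANTCA) and sites of the cAMP-response type (TGACGTCA). RefSeq promoters of build GRCm38.p6 matched 196 of the 253 higher genes, under 80%, so no comparison of their motif content with other genes is given. Over all 32851 promoters in that table, 6.75% held TGANTCA and 1.55% held TGACGTCA on either strand within 250 bases before the start, each motif being searched on its own so that sites could overlap. Of the 8488 tested genes with a promoter there, 6.19% held TGANTCA and 2.84% held TGACGTCA. Of 13 of the 15 largest rises, Sprr1a alone held either motif, and Gpr151 and Tubb6 were not examined. Among list members with smaller rises, Ucn, Nts, Plaur, Ccl9, Bdnf and Mcm5 held either motif. The members without a motif were not counted, so these names give no share to set beside those above. The 250 bases before the Sprr1a start, with 2 copies of TGAGTCA in capitals that begin 146 and 116 bases before it, are shown first, then those of Ucn (TGACGTCA, 44 bases before) and Nts (TGAGTCA, 207 bases before), which were chosen after their motifs and values were seen. All 3 are written in the direction of transcription, which is the minus strand of chr3:92485882-92486131, chr5:31138896-31139145 and chr10:102490419-102490668.
Sprr1a: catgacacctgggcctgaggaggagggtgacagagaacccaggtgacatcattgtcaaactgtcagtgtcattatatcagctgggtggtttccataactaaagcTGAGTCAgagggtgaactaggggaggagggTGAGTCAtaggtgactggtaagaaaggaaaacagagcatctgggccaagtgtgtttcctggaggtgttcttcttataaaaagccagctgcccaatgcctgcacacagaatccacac
Ucn: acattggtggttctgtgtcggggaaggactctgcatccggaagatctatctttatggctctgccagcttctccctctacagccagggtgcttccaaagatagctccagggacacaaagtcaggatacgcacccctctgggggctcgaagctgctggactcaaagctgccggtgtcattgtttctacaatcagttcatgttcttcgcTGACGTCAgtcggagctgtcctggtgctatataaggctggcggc
Nts: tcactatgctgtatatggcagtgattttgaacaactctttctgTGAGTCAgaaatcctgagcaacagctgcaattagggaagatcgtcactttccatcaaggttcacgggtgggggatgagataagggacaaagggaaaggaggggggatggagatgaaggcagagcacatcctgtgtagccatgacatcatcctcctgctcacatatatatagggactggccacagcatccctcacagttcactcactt
A match describes these letters only and is not evidence that a factor binds there.

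The remaining large rises fell outside these groups. Speer3 and Speer1 belong to a multigene family of glutamate-rich proteins first described in testis, whose near-identical copies a probe may not separate. No naive array lay above the detection level for either. Speer3 read 8.61, 8.97 and 9.14 at 2 days, at least 4.15-fold higher (adjusted p = 8.95e-14), and Speer1 was at least 3.204-fold higher (adjusted p = 4.59e-12). Slc6a4, the serotonin transporter gene, was likewise detected on no naive array and on all 3 at 2 days (7.73, 7.84 and 8.03), at least 2.02-fold higher (adjusted p = 6.47e-11).

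Sez6l, a brain membrane protein related to Sez6, read 7.57 to 7.96 on the naive arrays and 9.43 to 9.87 at 2 days and rose by 1.94 ± 0.15 (adjusted p = 1.75e-11). Its second probe differed by 0.42, so the size of that rise depends on the probe. With neqc, 4 of the 15 largest rises were more than 1.5 times closer to 0, namely Cckbr (1.92), Speer3 (1.14), Speer1 (0.86) and Slc6a4 (0.49), and all 15 kept their call in each of the 26 other settings.

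The lists of cytokine and growth factor signalling gave 1 call each, where 2.41% of all genes tested were higher. In the gp130 cytokine pathway, through which interleukin 6 and leukaemia inhibitory factor act, 1 of 10 tested genes rose. It was Socs3, the feedback inhibitor of that pathway, which read 8.30 to 9.05 on the naive arrays and 9.67, 9.64 and 9.67 at 2 days, a rise of 0.90 ± 0.15 (adjusted p = 0.000146). The shared receptor subunit gene Il6st differed by 0.10 ± 0.17 (adjusted p = 0.832). Among neurotrophins, glial cell line-derived factors and their receptors, 1 of 9 rose. Bdnf, which encodes brain-derived neurotrophic factor, rose by 0.56 ± 0.13 (adjusted p = 0.0061), a second probe differed by 1.92, and the call just missed the threshold without 2-day replicate 1 (adjusted p = 0.0516).

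Immune genes rose in the macrophage, complement and chemokine lists, and no gene of the neutrophil, lymphocyte or interferon lists was called. Of 18 tested macrophage markers 5 rose and none fell, with a median of 0.41, where 2.41% of all genes tested were higher. Mrc1, the mannose receptor CD206, read 8.12, 8.24 and 8.499 on the naive arrays and 9.41, 9.21 and 9.58 at 2 days. It rose by 1.13 ± 0.19 (2.19-fold, adjusted p = 9.98e-05), with a gap of over 0.7 log2 units between the groups. Lgals3, which encodes galectin-3, rose by 0.90 ± 0.10 (adjusted p = 2.18e-07) and Fcer1g, the common Fc receptor gamma chain, by 0.75 ± 0.15 (adjusted p = 0.00149).

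Aif1, which encodes the microglial and macrophage protein Iba1, rose by 0.50 ± 0.12 (adjusted p = 0.00732), and the call was lost without 2-day replicate 3 (adjusted p = 0.117). With neqc the Aif1 difference was 0.21. Laptm5, a lysosomal protein of leukocytes, rose by 0.44 ± 0.12 (adjusted p = 0.0313) and lost its call without naive replicate 2, 2-day replicate 2 or 2-day replicate 3 (adjusted p up to 0.204). Tyrobp, an adaptor of myeloid receptors, differed by 0.47 ± 0.18 (adjusted p = 0.174). Among complement genes 2 of 7 rose, where 2.41% of all genes tested were higher. C1qc rose by 0.89 ± 0.17 (adjusted p = 0.00104) and C1qb by 0.77 ± 0.17 (adjusted p = 0.0045), while C1qa, another chain of the same protein, differed by 0.36 ± 0.17 (adjusted p = 0.299). The C1qb call was lost without 2-day replicate 3 (adjusted p = 0.0743).

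Of 18 tested chemokines and cytokines 4 rose and none fell, where 2.41% of all genes tested were higher. Csf1, the macrophage growth factor that injured sensory neurons release, read 6.91, 7.18 and 7.46 on the naive arrays and 8.58, 8.49 and 8.58 at 2 days. It rose by 1.39 ± 0.16 (2.63-fold, adjusted p = 9.55e-08), with all 3 arrays at 2 days more than 1 log2 unit above the naive maximum. The monocyte-attracting chemokine genes Ccl8 (1.37 ± 0.19, adjusted p = 4.28e-06), Ccl7 (1.00 ± 0.20, adjusted p = 0.0012) and Ccl9 (0.74 ± 0.20, adjusted p = 0.0299) rose as well. Ccl8 and Ccl7 were above the detection level on 1 naive array each, and the Ccl9 call was lost when any 1 of 5 arrays was left out (adjusted p up to 0.195). With neqc the differences were smaller for Csf1 (0.69), Ccl8 (0.48), Ccl9 (0.42) and Ccl7 (0.29), and all 4 stayed past the threshold. Cxcl10, an interferon-induced chemokine, differed by -0.74 ± 0.23 and did not pass the threshold (adjusted p = 0.0646).

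Neutrophil and mast cell markers gave no call among 15 tested genes by limma, with 2 higher and none lower at an unadjusted p under 0.05. Their median difference was nevertheless 0.43. S100a8, a calcium-binding protein abundant in neutrophils, read 11.25, 11.89 and 12.94 on the naive arrays and 12.66, 12.75 and 12.73 at 2 days. All 3 arrays at 2 days exceeded 6 of the 7 naive arrays, and naive replicate 4 exceeded all 3; the difference was 0.86 ± 0.43 (adjusted p = 0.33). Its partner S100a9 showed the same overlap with a difference of 1.00 ± 0.46 (adjusted p = 0.277). None of 3 tested lymphocyte markers and none of 14 tested interferon and MHC class II genes was called, where limma gave none of the former and 3 of the latter lower at an unadjusted p under 0.05. The median of the interferon and MHC class II list was -0.24. Over all 10519 genes, 770 were higher and 877 lower at that unadjusted p.

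**Figure D3:**
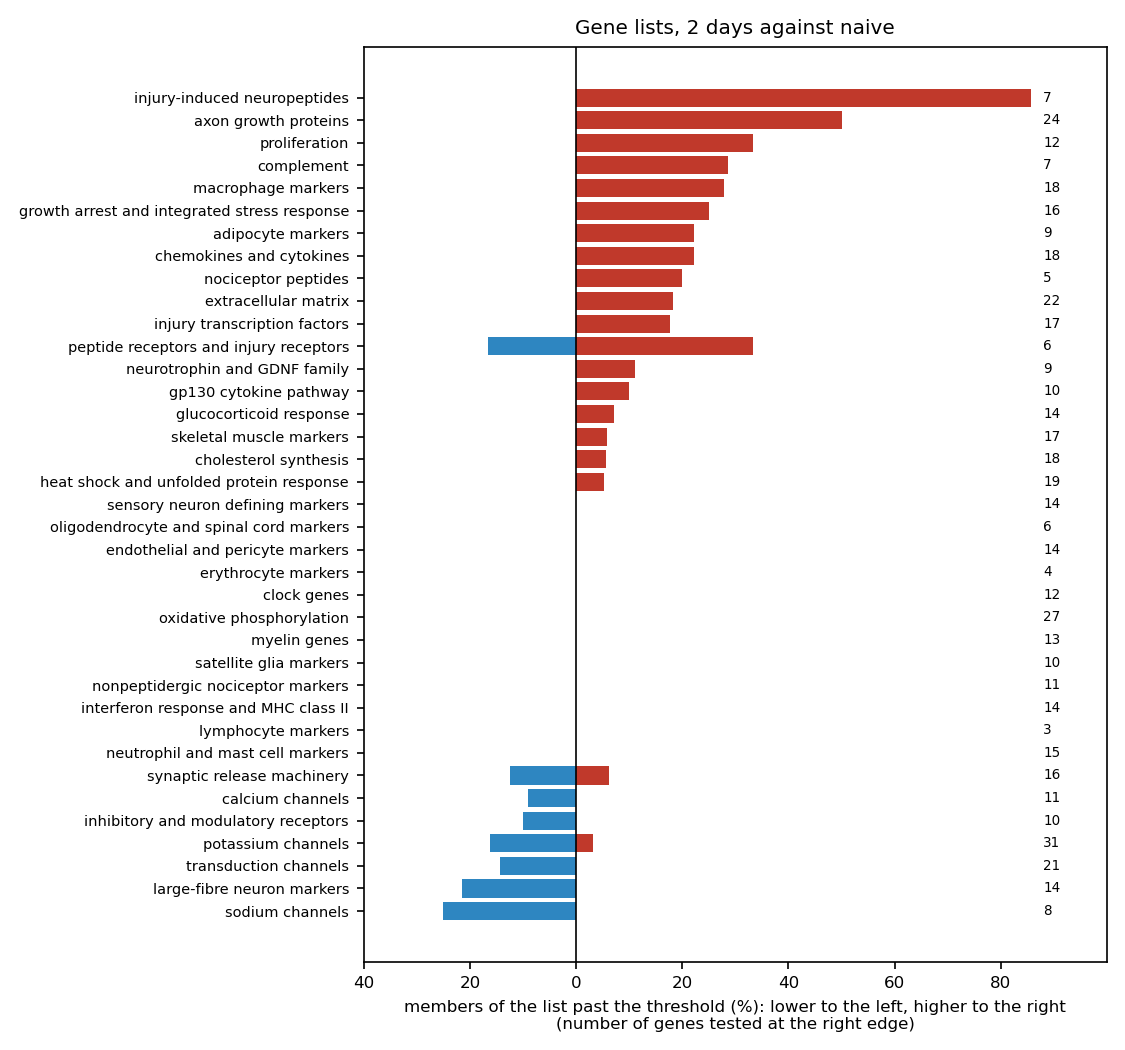
Share of the tested members of each of 37 gene lists past the threshold at 2 days (x axis, %), higher to the right in red and lower to the left in blue, with the number of genes tested at the right edge. Injury-induced neuropeptides (6 of 7) and axon growth proteins (12 of 24) have the longest bars to the right, and sodium channels (2 of 8) have the longest bar to the left. The lists were chosen with earlier results of these data known. Over all genes tested, 2.41% were higher and 1.45% lower.

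The falls were smaller than the rises. Vstm2b, an immunoglobulin-domain membrane protein, read 9.09, 9.44 and 9.90 on the naive arrays and 8.00, 8.09 and 8.25 at 2 days, a fall of 1.30 ± 0.16 (0.407 of the naive level, adjusted p = 4.85e-07). No other gene was called more than 2-fold lower. Whrn, the scaffold protein whirlin of hair cells and proprioceptors, read 8.97, 9.32 and 9.55 against 8.37, 8.44 and 8.60 and fell by 0.81 ± 0.12 (adjusted p = 2.74e-05). The groups did not overlap in either gene.

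Voltage-gated sodium channel genes had a negative difference in all 8 tested members, and 2 passed the threshold. Scn1a, the Nav1.1 channel of large myelinated neurons, read 10.11, 10.47 and 10.93 on the naive arrays and 9.82, 9.81 and 9.60 at 2 days, a fall of 0.75 ± 0.15 (adjusted p = 0.00171). Scn4b, an auxiliary subunit, fell by 0.40 ± 0.11 (adjusted p = 0.0256) and lost its call when any 1 of 6 arrays was left out (adjusted p up to 0.19). Scn10a, the Nav1.8 channel of nociceptors, differed by -0.02 ± 0.13 (adjusted p = 0.968) and Scn11a, Nav1.9, by -0.16 ± 0.07 (adjusted p = 0.252). Over all 10519 genes 5495 had a negative difference and 1.45% were called lower.

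Potassium channel genes gave 5 lower and 1 higher of 31 tested, with a median of -0.22 and 26 negative differences. Of all 10519 genes tested, 1.45% were lower and 2.41% higher, and 5495 had a negative difference. Kcna2, the Kv1.2 channel beside the nodes of myelinated axons, read 9.78, 10.03 and 10.59 on the naive arrays and 9.49, 9.19 and 9.30 at 2 days. It fell by 0.75 ± 0.16 (adjusted p = 0.0022), without overlap. Its partner Kcna1 had the larger difference, -1.02 ± 0.32, but the groups overlapped and it did not pass the threshold (adjusted p = 0.0696).

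Kcnk18, the leak channel TRESK, which damps nociceptor firing, fell by 0.70 ± 0.15 (adjusted p = 0.00315), and with neqc by 0.34. The other falls were Kcnc1, a fast Kv3 channel (-0.61 ± 0.15, adjusted p = 0.0133), Kcnk1, a leak channel (-0.46 ± 0.10, adjusted p = 0.00585), and Kcng4, a modulatory subunit (-0.42 ± 0.10, adjusted p = 0.00904). Each of those 3 lost its call when either of 2 arrays at 2 days was left out (adjusted p up to 0.0935), and with neqc Kcng4 differed by -0.18. Kcnmb4, a subunit of the calcium-activated BK channel, rose by 0.68 ± 0.15 (adjusted p = 0.0048).

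Of 11 tested calcium channel genes 1 was lower, where 1.45% of all genes tested were lower. It was the auxiliary subunit gene Cacng5 (-0.39 ± 0.09, adjusted p = 0.00824), which lost its call without 2-day replicate 3 (adjusted p = 0.0919). Cacna2d1, the alpha2delta-1 subunit that gabapentin binds, read 11.26, 11.83 and 12.06 on the naive arrays and 12.36, 11.65 and 12.45 at 2 days. Replicates 1 and 3 at 2 days were above the naive range and replicate 2 within it, and the difference of 0.41 ± 0.17 did not pass the threshold (adjusted p = 0.221).

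Ion channels that transduce stimuli or bind transmitters gave 3 lower and none higher of 21 tested, where 1.45% of all genes tested were lower. Htr3b, a subunit of the serotonin-gated 5-HT3 channel, read 10.02, 10.41 and 10.49 on the naive arrays and 9.65, 9.68 and 9.41 at 2 days. It fell by 0.77 ± 0.14 (adjusted p = 0.000403), without overlap, and its other probe differed by -0.76. Its partner subunit Htr3a differed by -0.58 ± 0.21 (adjusted p = 0.134). Chrna6, a nicotinic acetylcholine receptor subunit, fell by 0.72 ± 0.15 (adjusted p = 0.00206) and Asic1, an acid-sensing channel, by 0.52 ± 0.09 (adjusted p = 0.000357). The capsaicin receptor gene Trpv1 differed by -0.29 ± 0.21 (adjusted p = 0.54).

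Inhibitory and modulatory receptor genes had a negative difference in all 10 tested members, and 1 passed, the serotonin receptor gene Htr1a (-0.40 ± 0.10, adjusted p = 0.015), whose groups overlapped and whose call was lost without 2-day replicate 1 or 3 (adjusted p = 0.0728 and 0.111). With neqc Htr1a differed by -0.14. Of all 10519 genes tested, 5495 had a negative difference and 1.45% were called lower. Markers of large-fibre neurons gave 3 lower of 14, namely Whrn, Etv1 and Vsnl1. Etv1, an ETS transcription factor that proprioceptors need, fell by 0.67 ± 0.18 (adjusted p = 0.0282), and its call was lost when any 1 of 5 arrays was left out (adjusted p up to 0.198). Vsnl1, a neuronal calcium sensor, fell by 0.31 ± 0.08 (adjusted p = 0.0261) and lost its call when any 1 of 3 arrays was left out (adjusted p up to 0.178). No marker of nonpeptidergic nociceptors was called among 11 tested, with none higher and 4 lower by limma at an unadjusted p under 0.05. Mrgprd, which defines a class of them, differed by -0.49 ± 0.19 (adjusted p = 0.168). By limma at an unadjusted p under 0.05, 770 of all 10519 genes were higher and 877 lower.

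In the machinery of synaptic release 2 of 16 genes fell and 1 rose, where 1.45% of all genes tested were lower and 2.41% higher. Syn2, the vesicle protein synapsin II, read 11.47, 11.62 and 11.93 on the naive arrays and 11.22, 10.99 and 11.003 at 2 days and fell by 0.61 ± 0.14 (adjusted p = 0.00579). Without 2-day replicate 2 or 3 its adjusted p was 0.0533 and 0.0628. Cplx2, which encodes complexin 2, fell by 0.66 ± 0.19 (adjusted p = 0.0377), but 2-day replicate 2 (9.76) lay inside the naive range of 9.46 to 10.27, and when any 1 of 6 arrays was left out the call was lost (adjusted p up to 0.299). Syt4, a synaptotagmin of dense-core vesicles, rose by 0.26 ± 0.06 (adjusted p = 0.00372).

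**Figure D4:**
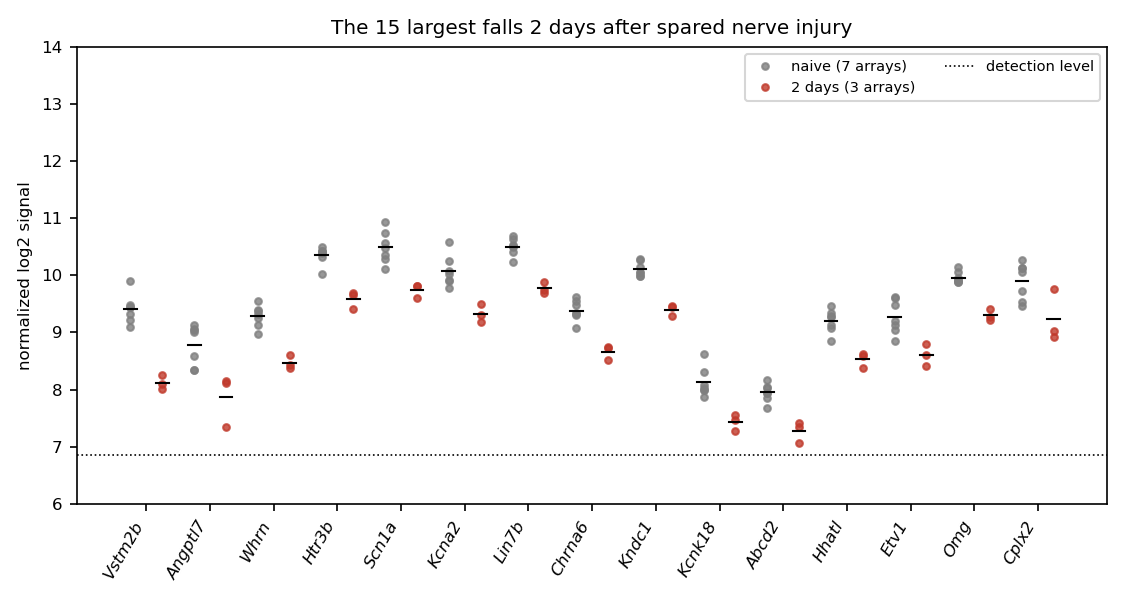
Normalized log2 signal (y axis) of the 15 genes with the largest falls (x axis), with 1 point per array for the 7 naive arrays in grey and the 3 arrays at 2 days in red; horizontal bars are group means and the dotted line is the detection level. In 14 of the 15 genes every red point lies below every grey point, and in Cplx2 a red point (9.76) lies among the grey ones.

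The other genes among the 15 largest falls belong to varied roles. Lin7b, a scaffold protein of synapses and epithelia, read 10.23 to 10.69 on the naive arrays and 9.70, 9.74 and 9.88 at 2 days and fell by 0.73 ± 0.10 (adjusted p = 4.50e-06), with other probes between -0.35 and -0.68. Omg, the oligodendrocyte myelin glycoprotein, which neurons also make, fell by 0.66 ± 0.13 (adjusted p = 0.000801). Kndc1 fell by 0.71 ± 0.12 (adjusted p = 0.000167) and Hhatl by 0.67 ± 0.12 (adjusted p = 0.000388). Abcd2, a peroxisomal fatty acid transporter, fell by 0.67 ± 0.15 (adjusted p = 0.00341), but its second probe differed by -0.10, neqc gave -0.30, and the call was lost without 2-day replicate 1 (adjusted p = 0.0654). Angptl7, a secreted angiopoietin-like protein, differed by -0.91 ± 0.25 (adjusted p = 0.0322). With neqc it was -0.56 and not past the threshold, and 6 single arrays left out in turn each ended the call (adjusted p up to 0.346).

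Lists for non-neuronal cells were mostly without calls. None of 10 satellite glia markers, 13 myelin genes, 14 endothelial and pericyte markers, 6 oligodendrocyte and spinal cord markers and 4 erythrocyte markers was called. At an unadjusted p under 0.05, limma gave 1 satellite glia marker lower, 1 endothelial marker lower and 1 oligodendrocyte marker in each direction. The same test gave 770 higher and 877 lower over all 10519 genes. In the extracellular matrix list 4 of 22 genes rose and none fell, where 2.41% of all genes tested were higher. Timp1, the metalloproteinase inhibitor induced by cytokines, read 7.78, 7.91 and 8.24 on the naive arrays and 9.72, 9.89 and 9.88 at 2 days, a rise of 1.91 ± 0.15 (3.77-fold, adjusted p = 2.55e-11).

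Mmp16, a membrane-type metalloproteinase, rose by 1.18 ± 0.15 (adjusted p = 2.10e-06), Lum, the collagen-binding proteoglycan lumican, by 0.69 ± 0.18 (adjusted p = 0.0204) and Mmp2, gelatinase A, by 0.66 ± 0.16 (adjusted p = 0.0118). The calls of Lum and Mmp2 were lost without 2-day replicate 1 or 3 (adjusted p up to 0.161 and 0.0737). With neqc Mmp16 differed by 0.63. The collagen gene Col1a1 differed by 0.50 ± 0.20 (adjusted p = 0.188). Car3, a carbonic anhydrase of muscle and fat, was higher by 1.45 ± 0.38 (adjusted p = 0.022), while the other 16 tested skeletal muscle markers had negative differences. The muscle list as a whole had a median of -0.33, and its values on naive replicate 6 were given above. Of the 9 adipocyte markers Car3 and Acvr1c were called, though Acvr1c lay above the detection level on none of the 10 arrays compared, and that list averaged 7.95 to 8.29 on the naive arrays and 8.11 to 8.37 at 2 days. The part of muscle or fat RNA in the Car3 value was not tested, and the Car3 call was lost with neqc (0.70, adjusted p = 0.123) and when any of the 3 arrays at 2 days was left out (adjusted p up to 0.147).

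Of 12 tested proliferation genes 4 rose and none fell, where 2.41% of all genes tested were higher. Kif22, a kinesin that binds chromosomes, read 8.85, 9.00 and 9.12 on the naive arrays and 11.03, 11.24 and 11.39 at 2 days. This rise of 2.22 ± 0.12 (4.66-fold, adjusted p = 1.37e-15) was far above that of the next members. The replication licensing genes Mcm6 (0.59 ± 0.16, adjusted p = 0.0256) and Mcm5 (0.52 ± 0.11, adjusted p = 0.00416) and the mitotic survivin gene Birc5 (0.40 ± 0.10, adjusted p = 0.0183) rose less. The calls were lost when 1 array at 2 days was left out, any of 3 for Mcm6 (adjusted p up to 0.151), replicate 3 for Mcm5 (0.0639) and replicate 2 or 3 for Birc5 (up to 0.184). With neqc the differences were 0.25 for Mcm6, 0.29 for Mcm5 and 0.18 for Birc5. The G1 cyclin gene Ccnd1 differed by -0.07 ± 0.11 (adjusted p = 0.814), and the median of the list was 0.07.

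Metabolic and stress lists stayed close to the background of all genes tested, of which 2.41% were higher and 1.45% lower. None of 27 oxidative phosphorylation genes was called, and limma gave none at an unadjusted p under 0.05. None of 12 clock genes was called, with 1 in each direction at an unadjusted p under 0.05. Cholesterol synthesis gave 1 of 18, Hsd17b7, a sterol reductase, which rose by 0.55 ± 0.08 (adjusted p = 6.53e-06). The glucocorticoid response gave 1 of 14 (Cdkn1a) and the heat shock and unfolded protein response 1 of 19 (Hspb1), both named above.

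The arrays at 1 day and at 3 days after the injury, 3 each, were compared with those at 2 days. These contrasts use no naive mean, though the naive arrays entered the shared estimate of the spread. From 1 to 2 days 18 genes were higher (0.171% of 10519) and none lower, with 220 higher and 162 lower by limma at an unadjusted p under 0.05; neqc gave 18 higher and 1 lower. A fit to the arrays of these 2 times alone gave 13 higher and 3 lower. All 18 genes of the main fit were also called higher at 2 days than in naive ganglia. Both comparisons use the same 3 arrays at 2 days and the same estimate of the spread, so this overlap is not separate evidence. Sprr1a read 8.18, 8.70 and 8.56 at 1 day against 10.48, 10.66 and 10.66 at 2 days, a difference of 2.12 ± 0.26 (adjusted p = 5.07e-06). The groups were more than 1.5 log2 units apart. Npy read 8.41, 8.77 and 9.49 at 1 day and was 1.72 ± 0.29 higher at 2 days (adjusted p = 0.00124).

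Gpr151 read 9.21, 9.80 and 9.63 at 1 day and was 1.53 ± 0.18 higher at 2 days (adjusted p = 4.08e-06), and Cckbr was 1.48 ± 0.27 higher (adjusted p = 0.0035), a call lost without 2-day replicate 2 or 3 (adjusted p up to 0.0947). Gal read 11.91, 12.58 and 12.30 at 1 day and was 1.27 ± 0.16 higher (adjusted p = 7.83e-06). None of these groups overlapped. Wfdc3, a protease inhibitor-like secreted protein, was above the detection level on no array at 1 day and read 7.98, 8.65 and 8.68 at 2 days, at least 3.005-fold higher (adjusted p = 1.69e-05). Atf3 differed between the 2 times by 0.11 ± 0.19 (adjusted p = 1) and Flrt3 by -0.03 ± 0.15 (adjusted p = 1), Jun by -0.17 ± 0.19 (adjusted p = 1) and Vstm2b by -0.20 ± 0.19 (adjusted p = 1).

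Skeletal muscle markers averaged 9.15, 9.11 and 7.88 on the arrays at 1 day, against 7.19 to 7.49 at 2 days, and their part in these differences was not tested beyond leaving arrays out. Without the arrays whose muscle mean was above 8.5, which leaves 1 array at 1 day, 10 genes were higher and 1 lower, and Npy lost its call (1.12, adjusted p = 0.904). Gal, Gpr151, Sprr1a, Ucn, Slc6a4, Speer1, Speer3, Lipn and Wfdc3, 9 of the 18, kept their calls in all 22 other settings.

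**Figure D5:**
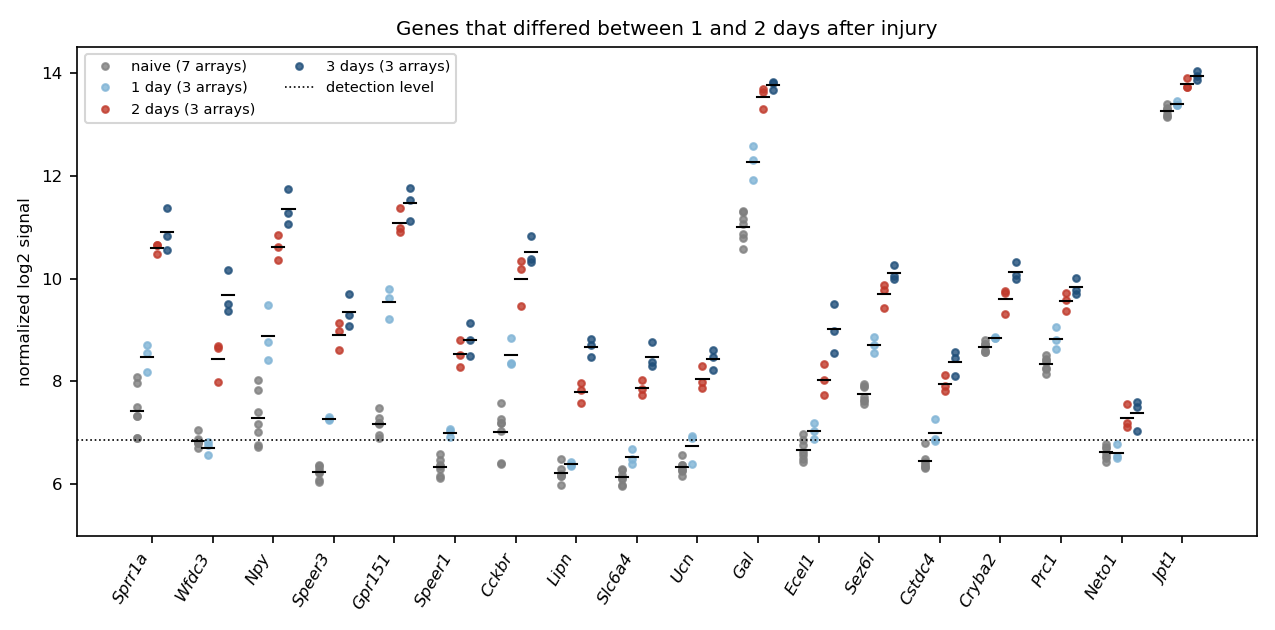
Normalized log2 signal (y axis) of the 18 genes that differed between 1 and 2 days (x axis), with 1 point per array for naive (grey, 7), 1 day (light blue, 3), 2 days (red, 3) and 3 days (dark blue, 3); horizontal bars are group means and the dotted line is the detection level. Sprr1a, Npy, Gpr151 and Gal at 1 day lie between the naive points and those at 2 days, while all points of Wfdc3, Lipn, Slc6a4 and Neto1 at 1 day lie below the detection level.

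From 2 to 3 days 3 genes were higher (0.0285%) and none lower, with 529 higher and 478 lower by limma at an unadjusted p under 0.05; neqc gave 2 higher and none lower. Wfdc3 read 9.38, 9.51 and 10.16 at 3 days and was a further 1.24 ± 0.23 higher (adjusted p = 0.0216). Lipn, a lipase of the skin, rose by 0.88 ± 0.14 (adjusted p = 0.00266) and read 8.83, 8.48 and 8.72 at 3 days. Reg1, a secreted lectin-like protein, was above the detection level on no array at 2 days and on all 3 at 3 days, at least 1.26-fold higher (adjusted p = 0.0156); with neqc it was not called (adjusted p = 0.166). This count rests on single arrays. Without 3-day replicate 1 it was 203, without 3-day replicate 3 it was 1, and without 2-day replicate 1 it was 0. The skeletal muscle markers averaged 9.89 on 3-day replicate 2, against 7.25 and 7.52 on the other arrays at 3 days, and without the arrays with a muscle mean above 8.5 the count was 1.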

How the data were processed

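The deposited table of the series holds, per the file headers, 1 signal column (intensity) and 1 detection p-value column per array for 25697 probes. The authors' second, deposited value table is on a log2 scale and lies within 0.038 of log2 of the quantile-normalized signals. How the authors made the detection p-values is not given in the sources used here; their columns follow the array's own signal on 3 of 40 arrays, from which the detection level was read (log2 6.85, range 6.82 to 6.88, at a detection p of 0.05). A detection column whose name matched no array (1) was not used.

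From the signals, normexp (offset 50) removed the background, after which quantile normalization and a log2 transform followed. Probes above the level on at least 3 arrays were kept (15462), and of the 23978 probes with 1 gene symbol the kept probe with the highest mean stood for its gene, which left 10519 genes, 2819 with several kept probes. limma 3.58.1 in R 4.3.3 fitted all 40 arrays by group with an intensity trend, so that the spread is shared over times, and Benjamini-Hochberg adjustment ran over all genes at 0.05. Of these steps, only the limma fit and adjustment for 2 days against naive were tested on simulated gene values. A gene with no naive array above the level has its fold as a bound against the level ("at least"). Arrays have no depth, and their number sets the precision. No 2 arrays held identical values (highest correlation 0.995).

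Genes named are the 15 largest rises and falls, the 6 largest changes between neighbouring times and members of gene lists that passed or are best known; a gene named outside that rule is said to be so. The members and lists were chosen with earlier results of these data known. Replicate numbers gave no consistent sign of pairing the arrays (correlation of same-numbered deviations -0.067, 0.24 and 0.098), so no block was used in the values given. For 2-day replicate 2 the same-numbered naive array correlated best, while for replicates 1 and 3 another naive array did (0.36 and 0.19). These correlations do not address a block by sample number. Samples at other times after injury entered the fit only.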

Additional observations from a re-analysis of the deposited data

Results flagged for a closer look

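Among the 199 sets of naive values looked at (162 genes and 37 list means), 11 held 1 array far from the other 6, where chance alone gives about 1 in 20. In naive replicate 4, S100a8 (12.94, others 11.25 to 11.93) and S100a9 (11.52, others 9.57 to 10.23) were high, as was Cstdc4 (6.81, others 6.32 to 6.503), while C1qb (8.54, others 9.16 to 9.36) and Htr3b (10.02, others 10.32 to 10.49) were low. In naive replicate 6, the muscle actin gene Acta1 (11.29, others 7.05 to 8.84) and the skeletal muscle list (9.34, others 7.10 to 7.76) were high. Naive replicate 2 was high for Timp1 (8.24, others 7.78 to 7.96) and for the nonpeptidergic nociceptor list (9.36, others 9.25 to 9.29). Naive replicate 1 was low for the cofilin gene Cfl1 (7.41, others 7.64 to 7.77) and for the neuronal transcription factor gene Isl1 (12.56, others 12.75 to 12.80).

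The 18 genes that differed between 1 and 2 days after injury passed the limma test of that difference itself. On the log2 scale these were Sprr1a (2.12), Wfdc3 (1.73), Npy (1.72), Speer3 (1.63), Gpr151 (1.53), Speer1 (1.53), Cckbr (1.48), Lipn (1.41), Slc6a4 (1.34), Ucn (1.31), Gal (1.27), Ecel1 (0.99), Sez6l (0.98), Cstdc4 (0.95), Cryba2 (0.75), Prc1 (0.73), Neto1 (0.67) and Jpt1 (0.39). Of these, Wfdc3, Lipn, Slc6a4 and Neto1 were above the detection level on no array at 1 day, so their differences are against background and have no rank. As bounds against that level they were at least 3.005-fold, 1.92-fold, 2.02-fold and 1.35-fold higher at 2 days. With neqc, which uses the deposited detection p-values, the differences of Wfdc3 (0.75), Lipn (0.43), Slc6a4 (0.45) and Neto1 (0.18) were smaller, and Neto1 was not past the threshold. From 2 to 3 days the same test was passed by Wfdc3 (1.24), Lipn (0.88) and Reg1 (0.68), the last against background at 2 days and at least 1.26-fold higher as a bound. Ecel1 and Cryba2 had the weakest calls of the first set (adjusted p = 0.0392 each) and lost them when any 1 of 5 of the 6 arrays was left out.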

How the results depend on the processing

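The count of 406 genes at 2 days ranged from 280 to 482 over the settings that moved it by less than 1.5 times. Robust variances with array weights gave 995 (503 higher, 492 lower), and leaving out 1 array gave 193 to 442, with 265, 268 and 193 without 2-day replicates 1, 2 and 3. The replicate block, with the number as a block, gave 280 (169 higher, 111 lower). The numbers gave no consistent sign of pairing the arrays, and whether a real block lies behind this lower count was not tested. A block by consecutive runs of sample numbers gave 403 (250 higher, 153 lower). Without the arrays with a skeletal muscle mean above 8.5, an alternative chosen after seeing the data, it was 291. From 1 to 2 days the 18 calls became 52 with robust variances and 11 without the muscle arrays, 17 with the replicate block, and 12 to 24 without 1 array. From 2 to 3 days the 3 calls became 0 with cyclic loess, 0 with only the arrays compared, 2173 with robust variances, 1 with the replicate block, 1 without the muscle arrays and 0 to 203 without 1 array. The cause of these shifts was not tested. Among the 127 called genes examined, none changed sign. Of the examined genes not called, Avil, Prph and Scn10a, all near 0, took either sign. Of the 74 list counts 30 moved by over 1.5 times in some setting, among them injury transcription factors higher (2 to 7), macrophage markers higher (3 to 8), potassium channels lower (2 to 9) and sodium channels lower (1 to 4). The 15 largest rises kept their calls in each of the 26 settings, and 11 of the 15 largest falls did, the exceptions being Angptl7, Abcd2, Etv1 and Cplx2. Of 127 called genes examined, 79 kept their calls in every setting that tested them, and neqc brought 53 over 1.5 times closer to 0.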

Other observations

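The genes in this paragraph and the next lie outside the lists and were chosen after their values were seen, so no count or test of a group goes with them. In activin signalling, a branch of the transforming growth factor beta family, Fst, the activin antagonist follistatin, read 6.79, 6.89 and 7.04 on the naive arrays (lowest, median, highest) and 7.93, 8.35 and 8.59 at 2 days, a rise of 1.40 ± 0.19 (limma adjusted p = 4.17e-06). Inhbb, the activin B subunit, rose by 0.87 ± 0.20 (adjusted p = 0.00624), and Acvr1, a type I receptor of the family, by 0.61 ± 0.18 (adjusted p = 0.0482), a call lost when any 1 of 8 arrays was left out. Further macrophage-type genes were higher as well. Pf4, a platelet and macrophage chemokine, rose by 1.39 ± 0.34 (adjusted p = 0.0132), Fcrls, an Fc receptor-like protein of tissue macrophages and microglia, by 1.07 ± 0.17 (adjusted p = 4.74e-05) and Ms4a6d by 0.93 ± 0.17 (adjusted p = 0.0005). Cd207, which encodes langerin, was above the detection level on no naive array and on all 3 at 2 days, at least 1.47-fold higher (adjusted p = 7.56e-09). The Pf4 call was lost without 2-day replicate 1 or 3 (adjusted p up to 0.0818). With neqc, Fst (0.62), Inhbb (0.36), Pf4 (0.69), Fcrls (0.48), Ms4a6d (0.47) and Cd207 (0.28) had smaller differences past the threshold, and Acvr1 was not called (0.49, adjusted p = 0.0558).

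Some regulators of actin and the growth cone were higher at 2 days. The actin-severing cofilin gene Cfl1 rose by 0.55 ± 0.10 (adjusted p = 0.000734) and Marcks, an actin-binding kinase substrate, by 0.51 ± 0.08 (adjusted p = 6.58e-05). Among transcription factors, Nfil3, a bZIP repressor induced in injured neurons, rose by 1.15 ± 0.16 (adjusted p = 6.53e-06) and Crem, a cAMP-response factor, by 0.58 ± 0.12 (adjusted p = 0.00264), while the nuclear receptor gene Esrrb fell by 0.61 ± 0.13 (adjusted p = 0.00326). The nicotinic subunit gene Chrnb3, whose product assembles with that of Chrna6, fell by 0.57 ± 0.12 (adjusted p = 0.00339), and its call was lost without 2-day replicate 3 (adjusted p = 0.0683). With neqc the differences of Cfl1 (0.28), Crem (0.23), Esrrb (-0.25) and Chrnb3 (-0.19) were closer to 0 and past the threshold.

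With 3 arrays at 2 days, 7 naive arrays and no sham group, surgery, anaesthesia and nerve lesion cannot be told apart. A difference that misses the threshold is not shown to be absent. Genes with no kept probe were not tested, among them Il6 and Ccl2.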
